A study of Bos taurus with 18 samples.

Results

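The change of plasma miRNAs between about 20 and about 25 months of age was compared in 3 Japanese Black steers, a beef breed fattened for a long period to raise marbling. The comparison used 12 of the 18 libraries: 3 exosomal (EX) and 3 non-exosomal free circulating (FC) libraries at 20 months, and 3 of each at 25 months. The same 3 steers gave plasma at both ages, so steer 1 at 25 months was compared with steer 1 at 20 months. No group received a treatment, all steers were kept under 1 feeding system, and both fractions came from 1 mL of each EDTA plasma by spin column. A miRNA was kept where 3 or more of a fraction's 9 libraries held over 5 CPM (counts scaled to a common library total), which left 345 in EX and 358 in FC of the 1071 in the table. Of these, 330 passed in both fractions, 15 in EX only and 28 in FC only. With 3 animals, age, fattening stage and sampling day cannot be told apart. A CPM is a share of a library, so fewer molecules of 1 miRNA and more of all others cannot be told apart either.

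MicroRNAs are short RNAs that bind messenger RNAs through the seed, bases 2 to 8 of the mature strand. Cells release them into plasma inside vesicles such as exosomes, or leak them bound to protein, and blood cells, vessel wall, liver and gut all contribute. Several plasma miRNAs point to a main source: miR-451 and miR-486 are abundant in red cells, miR-150 and miR-342 in lymphocytes, miR-223 in granulocytes and monocytes, miR-122 in liver, and miR-126 in endothelium and platelets. Of these, bta-miR-451, bta-miR-150, bta-miR-122 and bta-miR-223, for example, were at 3652 CPM or more in all 12 libraries.

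The sequences below are those the comparison turns on, 5′ to 3′, with the seed in capitals. The first set holds bta-miR-12034, the single miRNA called between the ages, and both arms of the bta-miR-126 hairpin.

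bta-miR-12034: cCCCGGGGagcccggcggu
bta-miR-126-3p: cGUACCGUgaguaauaaugcg
bta-miR-126-5p: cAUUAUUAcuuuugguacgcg

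The next set holds miRNAs that share a seed. The 3 let-7 members share one seed, and bta-miR-15a and bta-miR-15b share another. In bta-miR-10174-3p, the first 23 bases are those of the whole bta-miR-23b-3p and 1 base is added. Reads that lack the added base cannot be told apart.

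bta-let-7c: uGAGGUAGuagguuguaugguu
bta-let-7e: uGAGGUAGgagguuguauagu
bta-let-7f: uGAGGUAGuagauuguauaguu
bta-miR-15a: uAGCAGCAcauaaugguuugu
bta-miR-15b: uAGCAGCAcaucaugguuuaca
bta-miR-23b-3p: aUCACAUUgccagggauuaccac
bta-miR-10174-3p: aUCACAUUgccagggauuaccacg

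The last set holds 3 miRNAs whose rows were exchanged in the deposited tables, as described next. The reverse complement of bta-miR-194b gives the first 20 bases of bta-miR-194, so it lies on the opposite strand.

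bta-miR-181b: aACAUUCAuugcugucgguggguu
bta-miR-194: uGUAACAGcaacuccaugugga
bta-miR-194b: cACAUGGAguugcuguuaca

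In 7 of the 9 EX libraries (steer 3 at 20 months and all at 25 and 30 months), the rows of these 3 miRNAs do not hold the values their names call for. In EX of steers 1 and 2 at 20 months, bta-miR-181b was at 332 and 250 CPM, bta-miR-194 at 5472 and 5793 CPM and bta-miR-194b at 0. In the 4 other EX libraries at 20 and 25 months, the bta-miR-181b row held 3135 to 7763 CPM, the bta-miR-194 row 0 and the bta-miR-194b row 241 to 369 CPM. As deposited, the EX log2 fold change of bta-miR-181b was 2.69 ± 1.08 (SE, edgeR quasi-likelihood test, unadjusted p = 0.037), and with the rows put back it was 0.36 ± 0.43 (SE, unadjusted p = 0.415). Put back, bta-miR-194 gave 0.19 ± 0.24 (SE) in EX. The counts below keep the rows as deposited. With the rows put back, an alternative chosen after the data were seen, the miRNAs with an unadjusted p under 0.05 numbered 9 in EX (8 higher) and not 8, 15 for the mean of both fractions (9 higher), and 12 for the difference between fractions and not 13. The count rows of 4 FC libraries were shifted by 1 line: steer 3 at 25 months from bta-miR-6526 on, where 101 counts were recomputed from its CPM column, and all 3 steers at 30 months from bta-miR-6528 on, with 90, 77 and 88 counts. All 4 enter the FC fit.

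Total counts were 1837454 to 2778618 in the 6 EX libraries and 6958135 to 12088735 in the 6 FC libraries. One count was thus worth more in EX, and 3 counts corresponded to 1.08 to 1.63 CPM there against 0.248 to 0.431 CPM in FC. Steer 3 at 25 months stood apart in both fractions: its trimmed mean of M values (TMM) factors were 0.742 in EX and 0.734 in FC, against 0.838 to 1.17 in the other 10 libraries. Without TMM, the median log2 fold change moved from -0.08 to -0.19 in EX and from 0.09 to -0.04 in FC. The EX median was below 0 on both scales and the FC median changed sign.

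Between 20 and 25 months, 1 miRNA of 345 in EX passed FDR < 0.05 with a change over 2-fold (0.29%), and 0 of 358 in FC did (0.0%). The test was edgeR's quasi-likelihood test with steer as a block and Benjamini-Hochberg adjustment, and its p-values measure the spread among these 3 steers. At an unadjusted p under 0.05 EX had 8 (2.32%), of which 7 (2.03%) were higher and 1 (0.29%) was lower. FC had 13 (3.63%), of which 7 (1.96%) were higher and 6 (1.68%) were lower. These counts depended on the steers and the fit: EX had 5 without steer 1, 14 with only the 20 and 25 months libraries and 21 with DESeq2, and FC had 1 without steer 1, 24 without steer 2 and 7 with the shifted count rows as deposited. One direction in all 3 steers was seen for 95 EX miRNAs (27.5%), 42 higher (12.2%) and 53 lower (15.4%), and for 77 FC miRNAs (21.5%), 51 higher (14.2%) and 26 lower (7.26%). DESeq2 called 3 in EX and 0 in FC. One of its 3, bta-miR-383, had a fitted log2 fold change of -26.7, which is not a measurable size.

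The miRNA called in EX was bta-miR-12034, a sequence of 19 bases of which 89.5% are G or C, the second highest share among the 345. Its EX level was 34.1, 26.6 and 18.7 CPM at 20 months in steers 1, 2 and 3, and 354, 896 and 721 CPM at 25 months. All 3 steers were higher at 25 months and the ages did not overlap. Such a gap was seen in either direction for 32 of 345 EX miRNAs (9.28%), of which 23 (6.67%) were lower at 25 months. The log2 fold change of bta-miR-12034 was 4.53 ± 0.61 (SE, n = 3 steers), or 23.2-fold, with FDR = 0.0216 by edgeR's quasi-likelihood test. In FC it was at 1.65, 37.7 and 10.7 CPM at 20 months and 2.17, 14.8 and 17.7 CPM at 25 months, without a common direction. The EX change exceeded the FC change by 4.83 ± 1.18 on the log2 scale (SE, edgeR interaction term, unadjusted p = 0.00255, FDR = 0.28), so the difference between fractions did not pass. At 30 months the EX levels were 158, 571 and 874 CPM. The call was lost without steer 2 (FDR = 0.822) or without steer 3 (FDR = 0.125) in edgeR's test, while the log2 fold change stayed at 4.15 or more. Among other EX miRNAs of at least 80% G and C, bta-miR-11972 had a log2 fold change of 0.87 ± 1.84 (SE) and bta-miR-2436-3p one of -0.18 ± 2.99 (SE). Their mean EX levels were low, at 6.06 and 9.50 CPM (bta-miR-11972) and 3.93 and 2.61 CPM (bta-miR-2436-3p) at 20 and 25 months. At such levels their changes were not bounded.

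**Figure D1:**
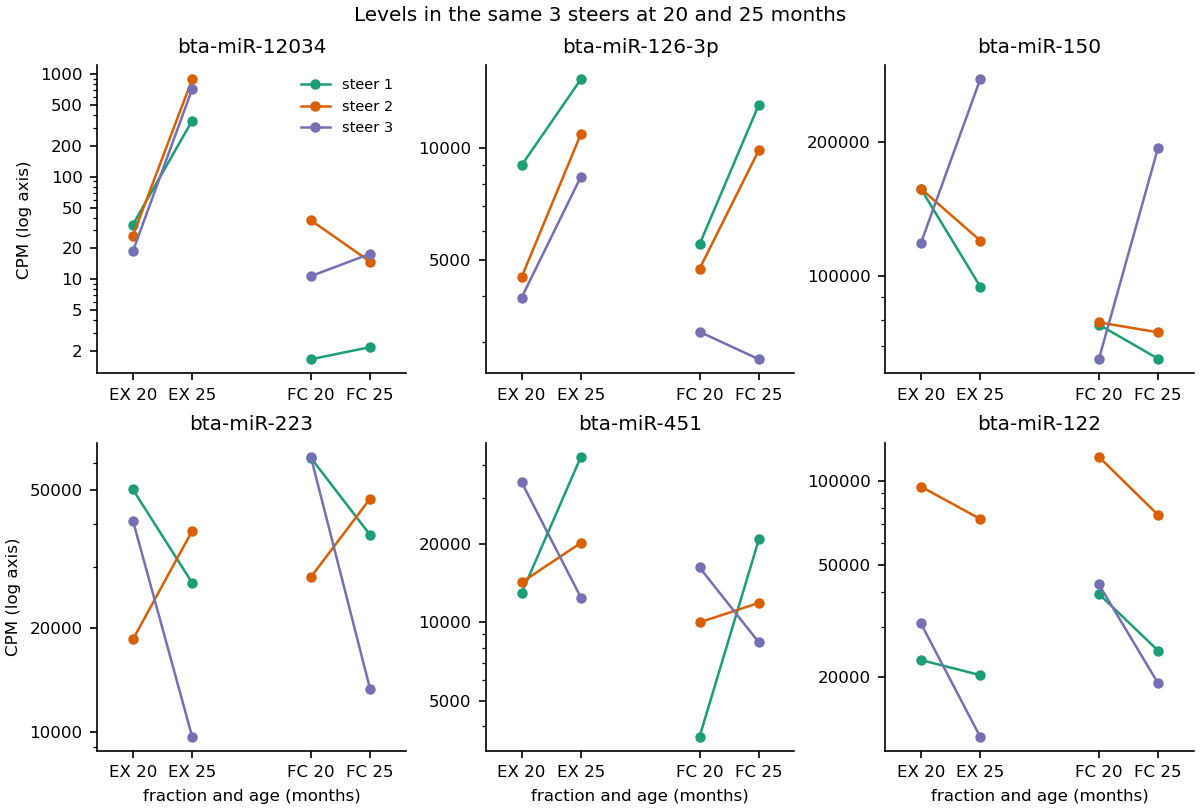
CPM (log axis) of 6 miRNAs in EX and FC at 20 and 25 months, with 1 line for each of the 3 steers. bta-miR-12034 is higher at 25 months in every steer in EX, bta-miR-126-3p in 5 of 6 lines, and in both fractions bta-miR-150 goes up in steer 3 alone, bta-miR-223 in steer 2 alone, and bta-miR-451 down in steer 3 alone.

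Next to bta-miR-12034 in the EX ranking stood bta-miR-126-3p, an endothelial and platelet miRNA. It was at 8996, 4494 and 3961 CPM at 20 months and 15335, 10924 and 8378 CPM at 25 months in EX. Each steer was about as much higher as the others, with log2 ratios of 1.01, 1.04 and 1.41. The log2 fold change of 1.14 ± 0.28 (SE) did not pass in edgeR's quasi-likelihood test (unadjusted p = 0.00329, FDR = 0.567), while DESeq2 gave an adjusted p of 0.0194. Its partner arm bta-miR-126-5p was at 4214, 3097 and 2183 CPM at 20 months and 8846, 6800 and 2968 CPM at 25 months in EX, a log2 fold change of 1.02 ± 0.37 (SE, edgeR, FDR = 0.998). In FC, bta-miR-126-3p was at 5511, 4735 and 3205 CPM and then at 13103, 9879 and 2704 CPM. Steers 1 and 2 were higher in FC, and steer 3 was lower in CPM but higher by 0.27 on the TMM-normalized log2 scale.

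A pair of let-7 miRNAs, a family known for restraining growth genes, stood next among EX miRNAs higher in all 3 steers. In EX, bta-let-7e was at 120, 87.6 and 58.9 CPM at 20 months and 300.0, 209 and 131 CPM at 25 months, with a log2 fold change of 1.34 ± 0.44 (SE, edgeR, FDR = 0.998). bta-let-7c went from 899, 1071 and 928 CPM to 1503, 1516 and 1305 CPM in EX, at 0.68 ± 0.23 (SE, edgeR, FDR = 0.998). Its EX ages did not overlap, as in 9.28% of EX miRNAs in either direction. In FC, the log2 fold changes of bta-let-7e and bta-let-7c were 0.52 and 0.07, and the FC ratios of bta-let-7c had no common direction.

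Among EX miRNAs lower in all 3 steers, bta-miR-1343-3p led. It was at 299, 182 and 397 CPM at 20 months and 140, 75.1 and 144 CPM at 25 months, without overlap, as in 6.67% of EX miRNAs in this direction. Its log2 fold change was -1.16 ± 0.42 (SE, edgeR, unadjusted p = 0.0249, FDR = 0.998). The other 4 were bta-miR-1307, bta-miR-6529a, the islet and gut endocrine miRNA bta-miR-375, and bta-miR-191, with log2 fold changes of -0.60, -0.82, -0.43 and -0.45. Without TMM, bta-miR-1307 and bta-miR-6529a were lower in 2 of 3 steers only.

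In FC, where no miRNA passed, the leading sequence was bta-miR-23b-3p, from a cluster expressed in many cells, with its near copy bta-miR-10174-3p. bta-miR-23b-3p was at 1287, 1054 and 1012 CPM at 20 months and 2159, 1607 and 1079 CPM at 25 months. The log2 ratios were 0.78, 0.46 and 0.61, and the fold change of 0.62 ± 0.21 (SE, log2) had an unadjusted p of 0.0178 and FDR = 0.999 in edgeR's test. bta-miR-125a, bta-miR-2285bf and the inflammation-linked bta-miR-146a followed, at 0.83, 0.84 and 0.72 (log2 fold change). Without TMM, bta-miR-125a was lower in 1 of the 3 steers.

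The 5 FC miRNAs that led among those lower in every steer were bta-miR-2448-3p, bta-miR-1246, bta-miR-196b, bta-miR-10172-3p and bta-miR-301b. The most abundant of them, bta-miR-1246, whose sequence matches a stretch of U2 small nuclear RNA, was at 3006, 4577 and 3430 CPM at 20 months and 2342, 2783 and 1563 CPM at 25 months in FC. All FC levels at 25 months lay under those at 20 months, as in 2.79% of FC miRNAs, while 5.59% did not overlap in either direction. The log2 fold change was -0.60 ± 0.26 (SE, edgeR, unadjusted p = 0.0475, FDR = 0.999). The other 4 had log2 fold changes from -1.04 to -0.81 at mean levels under 100 CPM.

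**Figure D2:**
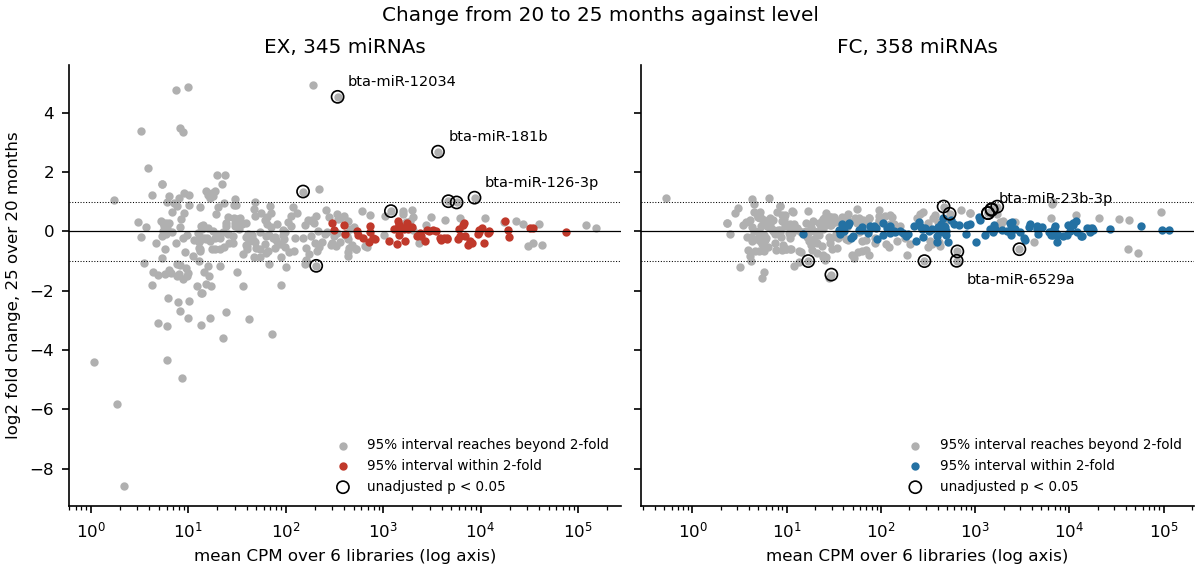
Log2 fold change of 25 over 20 months against mean CPM over 6 libraries (log axis), for 345 EX and 358 FC miRNAs. Coloured points have a 95% interval within 2-fold, grey points do not, and rings mark unadjusted p < 0.05; the labelled bta-miR-181b point rests on the exchanged rows, and the cloud widens towards low levels, more in EX than in FC.

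Changes shared by both fractions were sought in the mean of the EX and FC log2 levels of each plasma. Of 330 miRNAs, 0 passed FDR < 0.05 in limma (0.0%), and 15 had an unadjusted p under 0.05 (4.55%), 10 higher (3.03%) and 5 lower (1.52%), but 2 without steer 1. edgeR on the summed counts of both fractions called 1, bta-miR-12034. In all 6 pairs of steer and fraction, 25 miRNAs had 1 direction (7.58%), with 17 higher (5.15%) and 8 lower (2.42%). Without TMM the balance turned, with 6 higher and 13 lower.

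The miRNA with the smallest p among those 17 was bta-miR-126-3p, with a mean log2 change of 1.00 ± 0.34 (SE, limma, unadjusted p = 0.013, FDR = 0.965). bta-miR-126-5p followed with 0.97 ± 0.38 (SE, limma, FDR = 0.965) and was higher in 6 of 6 pairs with TMM and without. Averaged over both fractions and the 3 steers, both arms of this hairpin thus gave nearly equal values. bta-miR-197 gave 0.58, bta-miR-146a 0.63 and bta-miR-2285bf, of a family found in ruminants, 0.69 on the same scale. bta-miR-146a was at 850, 1252 and 641 CPM at 20 months and 1112, 1508 and 946 CPM at 25 months in EX, and at 1172, 1779 and 747 CPM and then 1884, 2035 and 1344 CPM in FC. Steer 2 was the least changed in both fractions. Without TMM, bta-miR-126-3p, bta-miR-197 and bta-miR-2285bf were lower in 1 of 6 pairs.

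Among the 8 miRNAs lower in all 6 pairs, bta-miR-1246 had the smallest p, with a mean log2 change of -0.46 ± 0.22 (SE, limma, unadjusted p = 0.0614, FDR = 0.991). In EX it was at 1183, 971 and 1914 CPM at 20 months and 939, 763 and 1185 CPM at 25 months. The EX ages overlapped, unlike those of FC. bta-miR-10172-3p, bta-miR-2284ab, bta-miR-1224 and bta-miR-193a-5p had mean log2 changes of -0.81, -0.41, -1.07 and -0.49. Of these, bta-miR-1246, bta-miR-1224 and bta-miR-193a-5p were lower in 6 of 6 pairs without TMM too.

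A test of the EX change against the FC change, with each plasma as a block, found 0 of 330 at FDR < 0.05 (0.0%) and 13 at an unadjusted p under 0.05 (3.94%) in edgeR, with the EX change the higher in 9 (2.73%) and the lower in 4 (1.21%). bta-let-7f stood first, with an EX change 0.65 ± 0.15 above that of FC on the log2 scale (SE, unadjusted p = 0.00178, FDR = 0.28). It was at 2606, 2812 and 2636 CPM at 20 months and 2232, 2795 and 3625 CPM at 25 months in EX, and at 4332, 4666 and 5539 CPM and then 2583, 2998 and 4888 CPM in FC. The EX levels had no common direction, while the FC levels were lower in CPM in all 3 steers, though the TMM-normalized log2 ratio of steer 3 was 0.34. bta-miR-143, a smooth muscle miRNA, had an EX change 0.29 ± 0.09 above that of FC (SE, log2, FDR = 0.73).

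The EX change was the lower of the pair for bta-miR-15b, bta-miR-375 and bta-miR-15a, in 3 of 3 steers each. bta-miR-15b differed by -0.56 ± 0.13 (SE, log2, edgeR, FDR = 0.28), at 3422, 2638 and 3320 CPM and then 2700, 1936 and 2174 CPM in EX, against 2287, 2061 and 2366 CPM and then 2671, 2028 and 2791 CPM in FC. Its seed mate bta-miR-15a differed by -0.39 ± 0.14 and bta-miR-375 by -0.43 ± 0.13 (SE, log2, edgeR, FDR of 0.73 and 0.698). With steer in place of plasma as the block, or with no block, 1 miRNA of 330 had an unadjusted p under 0.05, and with only the 20 and 25 months libraries 27 had.

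Between EX and FC, the log2 ratios were more alike for the same steer than for different steers. Over the 144 miRNAs above 100 CPM in both fractions, the log2 ratios of EX and FC of the same steer had a Pearson r of 0.61, 0.43 and 0.75 in steers 1, 2 and 3, and a Spearman rho of 0.62, 0.50 and 0.78. Between EX of one steer and FC of another, r ranged from -0.13 to 0.21. Between steers within a fraction it ranged from 0.02 to 0.48 in EX and from -0.28 to 0.15 in FC. Among the 3 FC profiles of change, the nearest to each EX profile was that of its own steer, and the same held for each FC profile among the 3 of EX. As deposited, EX of steer 2 was nearer to EX of steer 1 (0.48) than to its own FC (0.43). These values run across miRNAs, which are not independent replicates, and EX and FC of a steer share the plasma. With the rows put back (145 miRNAs), r within a steer was 0.70, 0.56 and 0.75, and the highest r between steers within EX, that of steers 1 and 2, went from 0.48 to 0.29. Over all 330 miRNAs the separation was weaker, with r from 0.10 to 0.39 within a steer and from -0.24 to 0.21 between EX and FC of different steers.

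**Figure D3:**
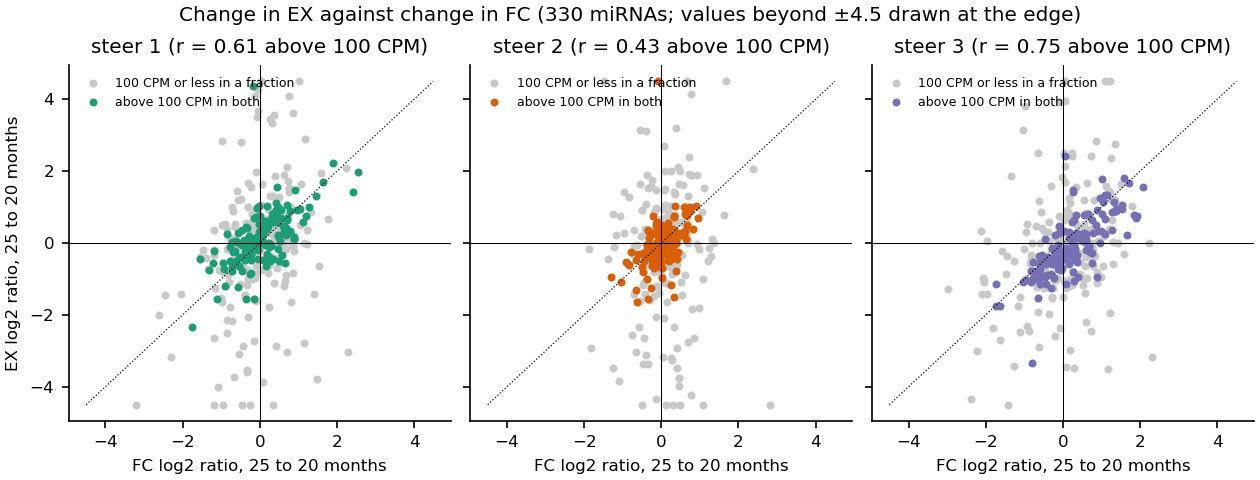
Log2 ratio of 25 to 20 months in EX (vertical) against FC (horizontal) for 330 miRNAs in each of the 3 steers; coloured points exceed 100 CPM in both fractions, the dotted line marks equal change, and values beyond the axis are drawn at its edge. Coloured points follow the line in each steer (r = 0.61, 0.43 and 0.75), while grey points scatter more along the EX axis.

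The leading lymphocyte miRNAs, bta-miR-150 and bta-miR-342, were higher at 25 months in steer 3 alone. bta-miR-150 was at 157118, 157185 and 118639 CPM at 20 months and 94908, 120314 and 276263 CPM at 25 months in EX. In FC it was at 78022, 78932 and 65258 CPM and then 65415, 74961 and 194329 CPM. Steer 3 went from the lowest to the highest of the 3 in both fractions, with log2 ratios of 1.55 and 2.09, while steers 1 and 2 were lower. bta-miR-342 had log2 ratios of 0.71 in EX and 1.89 in FC in steer 3 and of -0.63, -1.25, -0.52 and -0.27 in the other steers. Over the 7 lymphocyte miRNAs tested, the median log2 ratio of steer 3 was 0.71 in EX (0.94 with the rows put back) and 0.98 in FC, beside -0.23 and 0.09 over all miRNAs. Of the 7, 4 were higher in EX of steer 3 (5 with the rows put back) and 7 in FC (5 without TMM), so the list did not move as one. Across steers, bta-miR-150 had a log2 fold change of 0.13 ± 0.54 in EX and 0.65 ± 0.58 in FC (SE), and neither passed. Of the 7, 1 in EX had an unadjusted p under 0.05, the exchanged bta-miR-181b, and 0 in FC, beside 2.32% and 3.63% over all miRNAs.

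The 5 myeloid miRNAs split. bta-miR-223 was at 50282, 18489 and 40876 CPM at 20 months and 26961, 38157 and 9652 CPM at 25 months in EX, and at 62126, 28014 and 62526 CPM and then 37101, 47324 and 13252 CPM in FC. It was lower in steers 1 and 3 and higher in steer 2, with log2 ratios of -0.66, 0.80 and -1.75 in EX and -0.71, 0.60 and -1.72 in FC. In steer 3, where bta-miR-223 was lower, bta-miR-142-5p, a miRNA of all white cells, had log2 ratios of 0.89 in EX and 1.37 in FC. The median of the 5 in steer 3 was 0.89 in EX and 1.14 in FC (0.56 and 0.62 without TMM), with 3 of 5 higher in each. Over the list, 1 of 5 in FC, bta-miR-146a, and 0 of 5 in EX had an unadjusted p under 0.05, beside 3.63% and 2.32% over all miRNAs.

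Red-cell miRNAs were higher at 25 months in steer 1. bta-miR-451 was at 12935, 14239 and 34462 CPM at 20 months and 43037, 20165 and 12461 CPM at 25 months in EX, and at 3652, 10010 and 16242 CPM and then 20781, 11886 and 8394 CPM in FC. Steer 1 went from the lowest to the highest and steer 3 from the highest to the lowest, in both fractions. bta-miR-486 followed the same course, with log2 ratios of 2.24 in EX and 1.90 in FC in steer 1 and of -1.02 and -0.96 in steer 3. With TMM, the list of steer 3 did not share this course, with 4 of 8 higher in EX and 5 of 8 in FC. Without TMM, 1 of 8 in EX and 2 of 8 in FC were higher, so this depended on the scaling. All 8 red-cell miRNAs were higher in steer 1 in both fractions (7 of 8 in EX without TMM), with medians of 1.08 and 0.52, where 50.1% of all EX and 47.5% of all FC miRNAs were higher. In either fraction 0 of 8 had an unadjusted p under 0.05, beside 2.32% and 3.63% over all miRNAs. The log2 ratio of bta-miR-451 to bta-miR-23a, a common index of red-cell RNA in plasma, went in steer 1 from -0.43 to 1.62 in EX and from -1.79 to 0.54 in FC. In steer 3 it went from 1.55 to 0.70 in EX and from 0.70 to 0.06 in FC. The part of red-cell RNA in the other results was not tested.

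Of the 6 plasmas, that of steer 1 at 20 months had the highest summed level of muscle miRNAs in both fractions. bta-miR-206, made in skeletal muscle, was at 183, 15.8 and 18.7 CPM at 20 months and 37.9, 16.9 and 22.6 CPM at 25 months in EX, and at 68.3, 9.55 and 21.6 CPM and then 10.7, 25.3 and 11.8 CPM in FC. bta-miR-208b, of slow and cardiac muscle, reached 220 CPM (EX) and 103 CPM (FC) in that plasma, and was at 14.3 CPM or less in the other 10 libraries. All 5 muscle miRNAs tested had lower levels in steer 1 at 25 months in both fractions and on both scales, with medians of -2.64 and -1.20, and 0 of 5 had an unadjusted p under 0.05 in either fraction, beside 2.32% and 3.63% over all miRNAs.

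The 8 vessel wall and platelet miRNAs were higher in steer 2 in both fractions and on both scales, with median log2 ratios of 0.82 in EX and 0.65 in FC, beside 45.2% and 52.0% higher over all EX and FC miRNAs. bta-miR-143 was at 5335 CPM and then 11410 CPM in EX of steer 2, and at 10318 CPM and then 17746 CPM in FC. In steer 3 it was lower in both fractions, from 5096 to 2918 CPM in EX and from 9962 to 4953 CPM in FC. Of this list, 2 of 8 in EX, both bta-miR-126 arms, and 0 of 8 in FC had an unadjusted p under 0.05, beside 2.32% and 3.63% over all miRNAs.

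The epithelial list holds the miR-200 family and candidate-miR-30, numbered as in the study's list of candidates and matched there to miR-203a-3p of other mammals. Its 9 tested miRNAs were all higher in steer 1 in EX and in FC (7 of 9 in EX without TMM). The medians were 0.54 in EX and 0.48 in FC, and 0 of 9 had an unadjusted p under 0.05, beside 2.32% and 3.63% over all miRNAs, of which 50.1% and 47.5% were higher in steer 1. bta-miR-205, of stratified epithelium, was at 726, 838 and 571 CPM at 20 months and 1554, 1126 and 528 CPM at 25 months in FC, with a log2 fold change of 0.63. In steer 3, 2 of 9 were higher in EX and 3 of 9 in FC, and without TMM 1 of 9 and 0 of 9.

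In the let-7 family, EX and FC of steer 1 had medians on either side of 0. In steer 1, 9 of 9 members were higher in EX with a median log2 ratio of 0.44, and 1 of 9 in FC with a median of -0.27, beside 50.1% and 47.5% higher over all EX and FC miRNAs. Other lists had EX and FC medians of opposite sign in a steer too: -0.48 and 0.34 for miR-17-92 in steer 3, -0.14 and 0.79 for muscle in steer 2, -0.20 and 0.25 for miR-30 in steer 1 and -0.59 and 0.09 for vessel wall in steer 3. Without TMM, the first, second and last of these pairs had 1 sign, with -0.81 and -0.17, 0.08 and 0.93, and -0.92 and -0.42. Without TMM, 6 of 9 EX and 1 of 9 FC ratios of let-7 in steer 1 were above 0. In steer 3, 8 of 9 were higher in EX and 9 of 9 in FC with TMM, but 5 of 9 and 3 of 9 without. Of the 9, bta-let-7c and bta-let-7e had an unadjusted p under 0.05 in EX, and none did in FC, beside 2.32% and 3.63% over all miRNAs.

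**Figure D4:**
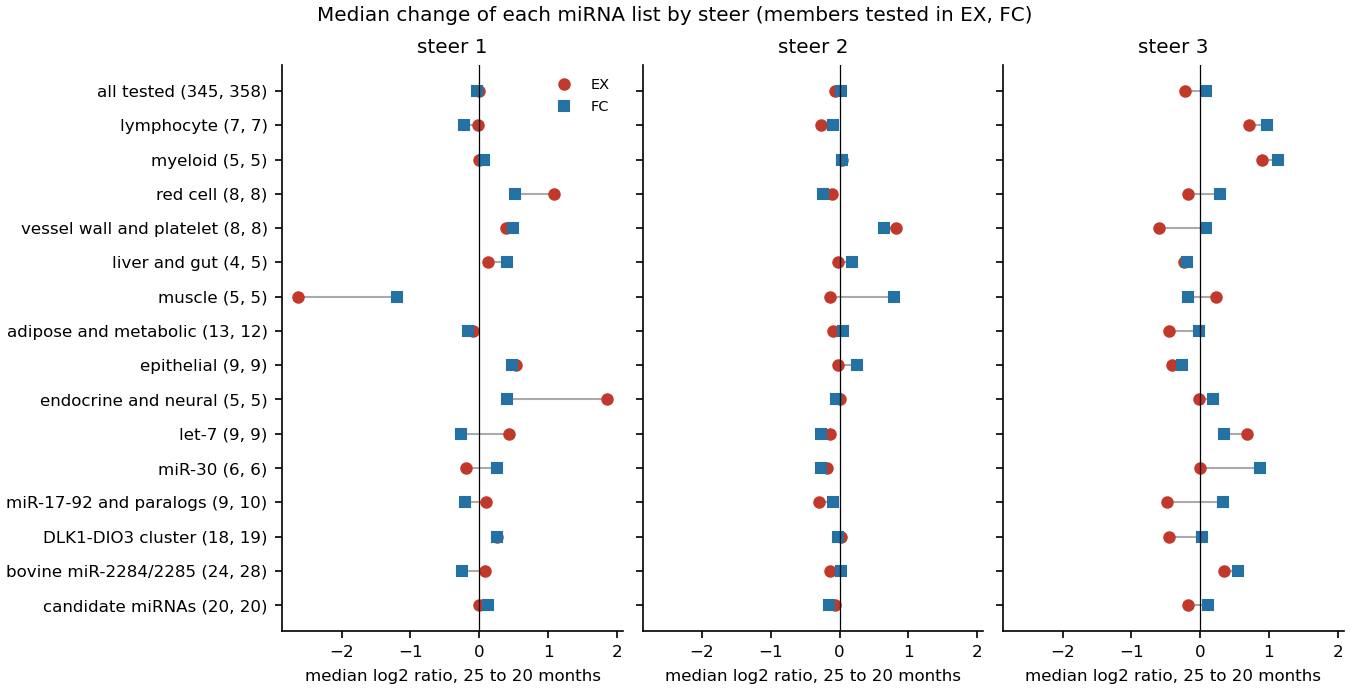
Median log2 ratio of 25 to 20 months over the members of each miRNA list, by steer, in EX (circles) and FC (squares), with the numbers of members tested in EX and FC after each name. Red-cell and epithelial medians stand above 0 in steer 1, vessel wall medians in steer 2 and lymphocyte medians in steer 3, each in both fractions. Other medians do so too, among them the myeloid ones in steer 3. In steer 1 the vessel wall, liver and gut, endocrine and neural, and DLK1-DIO3 medians are also above 0 in both fractions. The let-7 medians of steer 1 lie on either side of 0.

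The liver miRNA bta-miR-122 was highest in steer 2 throughout. It was at 22939, 95221 and 31004 CPM at 20 months and 20279, 72979 and 12218 CPM at 25 months in EX. In FC it was at 39474, 121516 and 42706 CPM and then 24776, 75377 and 18934 CPM. Steer 2 stood above the others at both ages in both fractions, while steers 1 and 3 exchanged places. All 3 steers were lower in FC at 25 months, with a log2 fold change of -0.72 ± 0.44 (SE, edgeR, unadjusted p = 0.135). In EX it was -0.48 ± 0.44 (SE), and the TMM-normalized ratio of steer 1 was 0.06. bta-miR-192, made in gut and liver, had log2 fold changes of 0.10 in EX and 0.20 in FC. None of the 4 liver and gut miRNAs tested in EX and 5 in FC had an unadjusted p under 0.05, beside 2.32% and 3.63% over all miRNAs.

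The remaining lists are given over the 3 steers. Median log2 fold changes were -0.25 in EX and 0.04 in FC for 13 and 12 adipose and metabolic miRNAs, and -0.06 and 0.25 for 6 of the miR-30 family. They were -0.23 and -0.02 for the miR-17-92 cluster and paralogs (9 and 10 tested), and -0.09 and 0.21 for the imprinted DLK1-DIO3 cluster (18 and 19 tested). For the bovine miR-2284 and miR-2285 families (24 and 28 tested) they were -0.12 and 0.18, for the candidate miRNAs (20 tested in each) -0.09 and 0.15, and for 5 endocrine and neural miRNAs -0.004 and 0.19. Over all miRNAs they were -0.08 and 0.09. In these 7 lists, 1 miRNA had an unadjusted p under 0.05, bta-miR-2285bf in FC, beside 2.32% of EX and 3.63% of FC miRNAs over all. By steer, some medians lay farther out: the endocrine and neural EX median was 1.86 in steer 1, and the FC medians of the miR-30 and the miR-2284 and miR-2285 families were 0.88 and 0.55 in steer 3 (0.36 and 0.05 without TMM).

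For most miRNAs the data could not bound the change. A 95% interval that lay within 2-fold in either direction held for 61 of 345 EX miRNAs (17.7%) and 111 of 358 FC miRNAs (31.0%). Above 1000 CPM it held for 49 of 78 EX and 55 of 78 FC miRNAs, with median half-widths of 0.63 and 0.61 on the log2 scale. Between 10 and 100 CPM, it held for 0 of 128 EX and 18 of 130 FC miRNAs, with half-widths of 3.64 and 1.14. In all 3 steers, the ratio stayed within 2-fold for 135 EX miRNAs (39.1%) and 222 FC miRNAs (62.0%). The EX libraries were also the shallower ones, and the part of depth in this difference was not tested.

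Above 100 CPM, the miRNAs whose log2 ratios varied least among steers, whatever their mean, differed between fractions. In FC these were bta-miR-320a, bta-miR-425-5p and bta-miR-93, with log2 ratios of 0.05, 0.04 and 0.06, of 0.07, 0.08 and 0.10, and of -0.15, -0.22 and -0.06. Without TMM the mean ratios were -0.08, -0.05 and -0.27, so the sign of the first pair depended on the scaling. In EX they were bta-miR-22-3p, bta-miR-296-3p and bta-miR-148b, with mean log2 ratios of -0.27, -0.41 and -0.33, all lower in 3 of 3 steers (bta-miR-22-3p and bta-miR-148b in 2 of 3 without TMM), so their ratios were alike rather than near 0. bta-miR-93, the reference for qPCR in the study, had EX log2 ratios of 0.70, -0.30 and -0.48. The most variable abundant FC miRNAs were bta-miR-144, bta-miR-451 and bta-miR-486, all of red cells. In EX they were bta-miR-194b and bta-miR-181b, which rest on the exchanged rows, and bta-miR-204. Other miRNAs that the study followed by qPCR had log2 fold changes of 0.003 and 0.55 (bta-miR-30b-5p), 0.04 and -0.04 (bta-miR-423-3p) and -0.04 and 0.26 (bta-miR-222) in EX and FC.

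The spread between steers was wider at 25 than at 20 months in EX and, above 100 CPM, in FC. In EX the median SD of log2 CPM over the 3 steers went from 0.43 at 20 to 0.59 at 25 months, and in FC from 0.38 to 0.46. Above 100 CPM, the EX median went from 0.29 to 0.41 and the FC median from 0.29 to 0.39, and the SD was higher at 25 months for 103 of 152 EX and 100 of 152 FC miRNAs. At 100 CPM or less in FC the median difference was 0.004 and 105 of 206 were higher. For bta-miR-150 it went from 0.29 to 1.00 in EX and from 0.27 to 1.18 in FC, and for bta-miR-142-5p from 0.09 to 0.59 and from 0.21 to 0.82. The wider spread in FC rested on steer 3: the median difference was 0.05 with it and -0.16 without it, and in EX 0.12 and 0.05. No test was made of spread.

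Over whole profiles, the root mean square difference in log2 CPM between 20 and 25 months of the same steer came to 1.65, 1.57 and 1.37 in EX, while the FC values were 0.76, 0.62 and 0.89. With the rows put back, the EX values were 1.56, 1.49 and 1.37. Between different steers across the ages, the means were 1.54 in EX (1.47 put back) and 0.83 in FC. Of the 6 ways to match the steers across ages, 0 gave a smaller distance than the true one in FC and 2 in EX (exact permutation p = 0.167 and p = 0.5, one-sided, where 0.167 is the smallest possible). Between steers of 1 age, the mean EX distance was 1.41 at 20 months and 1.60 at 25 months, and the mean FC distance 0.83 and 0.84. A steer at 25 months was thus about as far from itself at 20 months as from the others in EX, and the FC distances did not differ beyond what 3 steers can show.

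**Figure D5:**
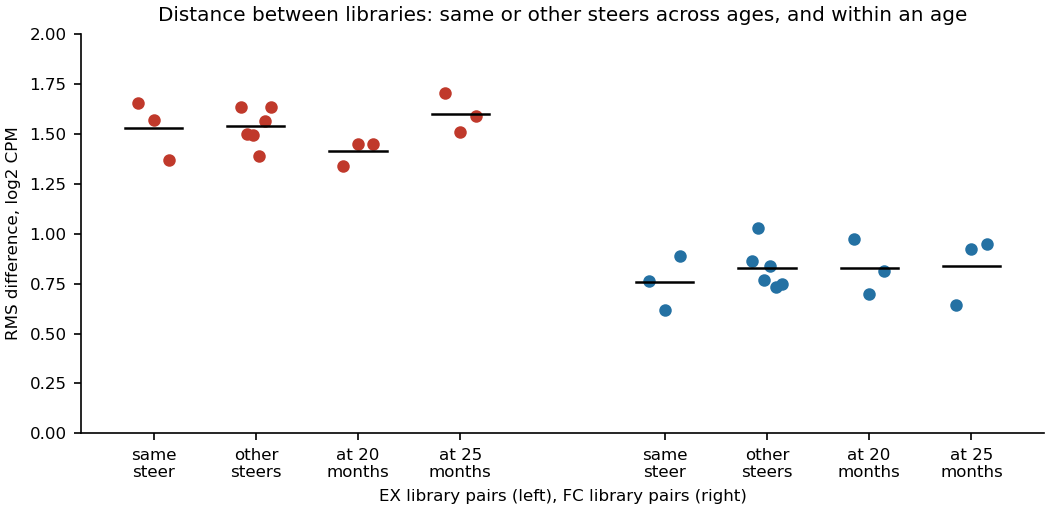
Root mean square difference in log2 CPM between pairs of libraries, for EX and FC: the same steer at 20 and 25 months, other steers across the ages, and pairs of steers within 20 and within 25 months. Points are library pairs and bars their means (1.53, 1.54, 1.41 and 1.60 in EX, 0.76, 0.83, 0.83 and 0.84 in FC).

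The number of miRNAs present and the weight of the leading ones did not pass a test, which 3 pairs cannot do. In EX, 328, 333 and 328 of the 345 miRNAs had counts at 20 months and 322, 311 and 329 at 25 months, a mean change of -9.0 ± 11.8 (SD, n = 3, exact sign-flip permutation p = 0.5). Counting only miRNAs with at least 3 counts, the EX number was lower in all 3 steers, by 7, 24 and 3 (exact sign-flip permutation p = 0.25). In FC, 356 to 358 of the 358 had counts in every library. The 10 most abundant miRNAs, led by bta-miR-150 in EX and bta-miR-16b in FC, held 59.2% ± 4.2 of EX abundance at 20 months and 59.2% ± 6.6 at 25 months, and 57.7% ± 3.9 and 58.1% ± 5.8 in FC (SD, n = 3, exact sign-flip permutation p = 1 in both). Their share was higher in steer 3 and lower in steers 1 and 2 at 25 months, in both fractions. With 3 pairs, the smallest two-sided p of this test is 0.25.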

How the data were processed

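Plasma was taken from 3 steers at 3 ages. EX and FC RNA was sequenced as small RNA. The authors trimmed reads with cutadapt 5.0 and Trimmomatic 0.39, checked them with FastQC 0.12.1, counted bovine miRNAs with miRDeep2 and computed CPM with edgeR. Per the file headers, the deposited tables hold estimated counts (not always whole, since reads shared by loci were split) and CPM per library. A row of totals was left out. Columns of the authors' own comparisons were not used.

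Counts were rounded and fitted in edgeR 4.0.16 (TMM, glmQLFit, steer as block, all 9 libraries of a fraction). The mean change used limma 3.58.1 on log2 CPM (prior count 2), and DESeq2 1.42.0 was an alternative. Intervals are 95% and come from these fits, so they measure the spread among steers. The floor of 3 counts covers counting error only. The study numbers its plasma samples by age and individual, and the libraries carry the same ages and numbers, so same-numbered libraries were taken as 1 steer. Deviations from the age means correlated between ages of the same steer at -0.05 to 0.08 in EX and 0.05 to 0.27 in FC. Between different steers the values were -0.06 to 0.08 in EX and -0.26 to 0.07 in FC. The ranges overlapped in both fractions, so these values do not settle the pairing. Libraries of the same fraction and age differed from each other beyond sampling noise, so none is a copy of another in its group. This check did not compare libraries across ages or fractions. Tests were checked on simulated data.

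Named miRNAs were those called, the 5 with the smallest p per direction and fraction among those of 1 direction in every steer, the same for the mean of fractions, 3 per direction for the difference, the 10 most abundant, the 3 least and 3 most variable in log2 ratio above 100 CPM, leading list members and the study's qPCR targets. Members and lists were chosen with earlier results of these data known. Alternatives covered scaling, filters, tools, prior counts, blocks and left-out steers. Row exchanges were put back in an alternative chosen after the data were seen, as were fits without the block on 6 libraries. Genome positions are not given here.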

Additional observations from a re-analysis of the deposited data

Results flagged for a closer look

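bta-miR-432, of the DLK1-DIO3 cluster, was higher in EX and lower in FC at 25 months in all 3 steers. Its log2 ratios were 0.32, 0.03 and 0.45 in EX and -0.15, -0.06 and -0.09 in FC, so the mean EX change lay 0.37 above that of FC. The direction in FC depended on TMM: without it, the FC ratio of steer 2 was 0.10. Of 330 miRNAs, 2 had such opposite directions (0.606%) with TMM and 5 without it. In edgeR's interaction test the difference was 0.44 ± 0.66 (SE, log2, FDR = 0.997), so it did not pass, and the levels were 26.0 to 93.3 CPM.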

How the results depend on the processing

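Calls were few under every setting. In EX, the count of called miRNAs was 1 under the main test, 3 with DESeq2, 2 without a filter (bta-miR-12034 and the exchanged bta-miR-194) and 0 to 1 when a steer was left out: without steer 3 the 1 call was the exchanged bta-miR-181b. In FC it was 0, except for bta-miR-10175-5p without steer 2 (0 to 1 over the left-out steers). For the mean of both fractions it was 1 with edgeR on summed counts and 0 to 1 without a steer, and for the difference between fractions 0 to 1, where the 1 in both was again the exchanged bta-miR-181b without steer 3.

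Without the steer as a block, the paired design dropped, the counts of calls were the same: 1 in EX, 0 in FC, 0 for the mean and 0 for the difference. The block changed no call. miRNAs with an interval within 2-fold were then 64 in EX and 96 in FC, and they ranged over the left-out steers from 16 to 39 in EX and from 35 to 85 in FC.

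The median difference in spread ranged from 0.0477 to 0.152 in EX and from -0.16 to 0.15 in FC over the left-out steers. The distance of the same steer minus other steers was -0.006 in EX and 0.000584 above 100 CPM, and ranged from -0.0430 to 0.0470 without a steer. The top 10 share changed by -0.05 points in EX and 0.40 points in FC, and by -4.76 to 3.02 and -4.30 to 2.82 points without a steer. In EX, an interval within 2-fold held for 0 of 128 miRNAs between 10 and 100 CPM and 0 of 65 at 10 CPM or less. Changes at these levels could thus not be bounded within 2-fold. EX totals were at most 2778618 counts, and the part of depth was not tested.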
